A study of Mus musculus with 12 samples.

Results

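Immature neurons are recognized by a small set of cytoskeleton and RNA-binding genes, and 10 of these are described here in mouse cells derived from embryonic stem (ES) cells. They are the microtubule genes Dcx, Tubb3, Map2 and Stmn2, the neurofilament genes Nefl, Nefm and Ina, and the RNA-binding genes Elavl3, Elavl4 and Rbfox3. The genes were chosen by name, as genes of early neuronal differentiation, with earlier results of these data known. They were found through their Ensembl identifiers among the 45706 genes of the RNA-seq count table. All 10 were among the 17003 genes that passed the filter on low counts.

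A newborn neuron builds a neurite, and for this it needs a microtubule skeleton of its own. Tubb3 is the neuronal beta-tubulin, doublecortin (Dcx) and Map2 bind and stabilize microtubules, and Stmn2 is a growth cone protein that binds tubulin, while Nefl, Nefm and Ina form the neurofilaments of the axon. Elavl3 and Elavl4 encode neuronal Hu proteins that bind and stabilize mRNA, and Rbfox3, the source of the NeuN epitope, is a splicing regulator of more mature neurons. In neural stem cells and glial progenitors most of these genes are held at a low level, although some Map2 transcripts are also known from glial lineage cells.

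The libraries came from C57BL/6 mouse ES cells with GFP knocked into 1 allele of Sox1, a transcription factor of early neural stem cells, and there were 4 groups of 3 biological replicates. Baseline denotes Sox1 negative glial progenitors that were not sorted. Sox1posGP denotes glial progenitors in which the transcriptional activator dCas9-VP64 had been guided to the Sox1 promoter and which were sorted as Sox1 positive. NSC denotes unsorted neuroepithelial cells made from ES cells by neural induction, and NR denotes neuroepithelial cells of neural rosettes that were sorted for GFP. The progenitors were clonal lines, and which lines gave which libraries is not given in the sources used here. The labels give Baseline as not sorted, whereas the study's text speaks of sorting cells for the comparison of progenitors, and the labels were followed here. By the labels every Sox1posGP library was both targeted and sorted and no Baseline library was either, so targeting and sorting cannot be told apart in that comparison.

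Library totals ranged from 4939268 to 18351483 counts in Baseline, from 3407066 to 6315574 in Sox1posGP, from 29046205 to 43095688 in NSC and from 16707006 to 34594885 in NR, so low genes were measured less precisely in the progenitors. Sox1 itself lay at 4.83, 6.00 and 5.43 CPM (the usual count scaled to the effective library total) in Baseline and at 20.3, 20.9 and 21.7 CPM in Sox1posGP. It lay at 48.6, 64.9 and 51.8 CPM in NSC and at 4.62, 20.0 and 19.2 CPM in NR, so the libraries labelled as GFP sorted neuroepithelium held less Sox1 RNA than the unsorted ones, and NR 1 lay below each Baseline library. NR 1 also stood apart in the genes described here, and the tests and ratios that rest on NR are given with and without it.

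Upstream sequences were available from RefSeq (assembly GRCm38.p6) for 7 of the 10 genes, with 11 transcription starts. The runs below are shown because the profiles of Elavl3, Elavl4 and Ina lay near each other, while Tubb3 and Map2 ran in opposite directions across the groups. Each is written 5′ to 3′ on the gene's strand and ends at the transcription start or, for Tubb3 and Map2, at the edge of the annotated gene. Capitals mark the E-box letters CAGCTG and the Sox-type letters AACAAT, on either strand.
Elavl3 (chr9:22052024-22052273, minus strand): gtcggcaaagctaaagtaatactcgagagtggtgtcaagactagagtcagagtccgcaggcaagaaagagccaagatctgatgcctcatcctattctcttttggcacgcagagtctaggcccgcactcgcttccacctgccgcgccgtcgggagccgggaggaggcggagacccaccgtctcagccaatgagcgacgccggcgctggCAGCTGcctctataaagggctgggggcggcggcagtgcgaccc
Elavl4 (chr4:110351912-110352161, minus strand): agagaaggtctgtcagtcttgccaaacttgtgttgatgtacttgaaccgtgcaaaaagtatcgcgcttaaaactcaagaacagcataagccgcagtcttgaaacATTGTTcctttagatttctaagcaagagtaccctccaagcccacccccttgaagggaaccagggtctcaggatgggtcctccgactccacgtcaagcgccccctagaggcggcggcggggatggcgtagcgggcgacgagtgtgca
Ina (chr19:47014431-47014680, plus strand): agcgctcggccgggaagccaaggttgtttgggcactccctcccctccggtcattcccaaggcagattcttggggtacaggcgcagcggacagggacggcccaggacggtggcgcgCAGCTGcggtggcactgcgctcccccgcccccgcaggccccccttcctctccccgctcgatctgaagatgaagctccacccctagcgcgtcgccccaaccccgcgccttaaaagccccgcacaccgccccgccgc
Tubb3 (chr8:123411303-123411423, plus strand): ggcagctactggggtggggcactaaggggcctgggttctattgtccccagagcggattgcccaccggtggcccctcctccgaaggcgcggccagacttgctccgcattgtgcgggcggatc
Map2 (chr1:66175079-66175272, plus strand): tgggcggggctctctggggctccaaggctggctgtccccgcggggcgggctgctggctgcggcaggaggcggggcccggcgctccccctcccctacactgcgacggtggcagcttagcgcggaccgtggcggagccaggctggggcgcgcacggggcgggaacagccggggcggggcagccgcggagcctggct

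Over the 250 bases before the start, the number of CpG dinucleotides was 34 for Map2, 25 for Ina, 21 for Tubb3, 20 for Elavl3 and 14 for the upstream start of Elavl4, against a median of 6 and an upper quartile of 16 over all 32851 mouse promoters of the same length. Both Dcx starts and the Rbfox3 start held 3 CpG each, and the other 3 Elavl4 starts held 4, 5 and 3. The letters CAGCTG or CAGATG, which basic helix-loop-helix factors bind, were present before the starts of Elavl3 and Ina and before 3 of the Elavl4 starts. Of these Elavl4 starts, 2 have overlapping windows and share the same CAGCTG and CAGATG. At least 1 of these letters was held by 25.5% of all promoters. The Sox-type letters ACAAAG or AACAAT were present before 1 start each of Dcx and Elavl4 and before the Rbfox3 start, and 24.0% of all promoters held at least 1. Tubb3 and Map2 held neither within these windows. These matches describe the letters and no binding was measured.

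In both neuroepithelial groups, 8 of the 10 genes were higher than in Baseline, Map2 was lower, and Rbfox3 did not pass the test in either. Of all genes tested, 44.4% were called higher and 33.7% lower in NSC than in Baseline, and 45.6% were called higher and 34.1% lower in NR than in Baseline. Among the 8 that rose, the differences ranged from 6.43-fold for Elavl4 in NR to 280-fold for Nefl in NSC. In Sox1posGP, Dcx was the 1 member that passed the test against Baseline, where 21.6% of all genes were called higher and 22.7% lower. Between the neuroepithelial groups, 8 of the 10 were lower in NR than in NSC and none was higher, where 26.6% of all genes were called lower and 30.0% higher. A gene was called at a p below 0.1 from the quasi-likelihood test of edgeR, adjusted by the Benjamini-Hochberg method over the 17003 genes.

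**Figure D1:**
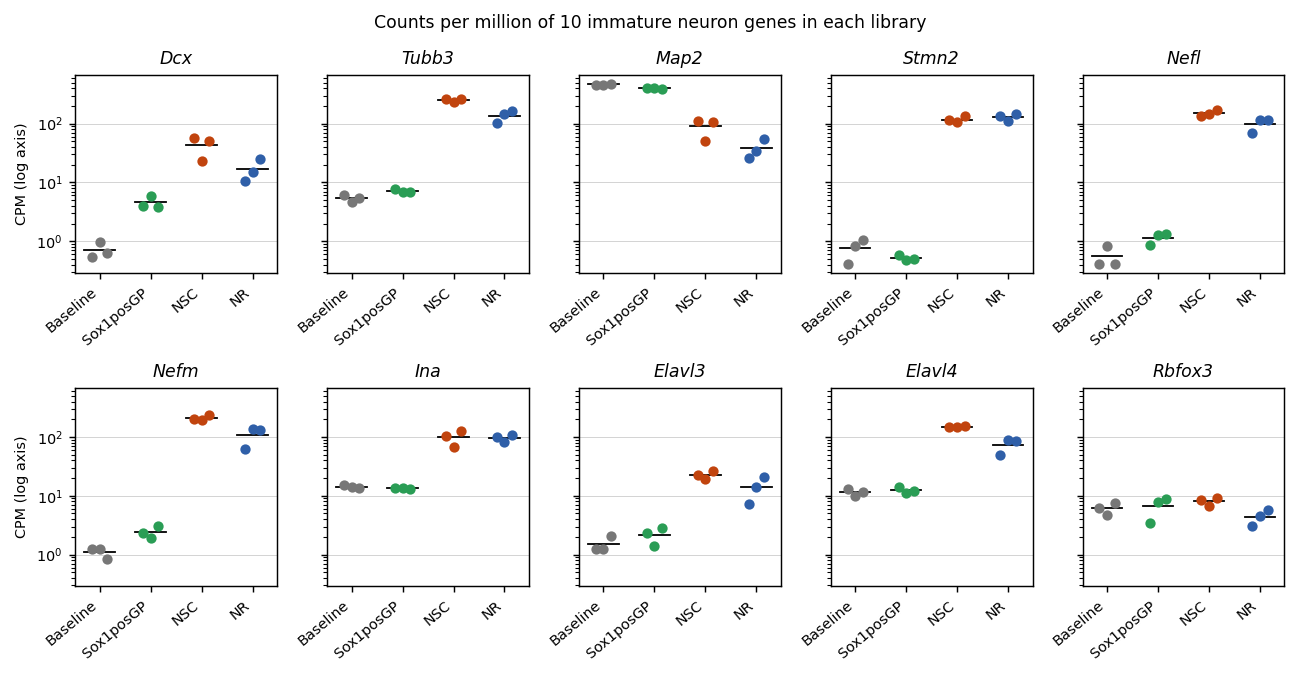
CPM after trimmed-mean scaling (log axis) of the 10 genes in each of the 12 libraries, with points for libraries and a line for the group mean of 3. Map2 is highest in Baseline at 454 to 480 CPM, Rbfox3 stays between 3.02 and 9.27 CPM in the 12 libraries, and the other 8 genes are higher in each NSC and NR library than in any Baseline library.

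The median log2 fold change of the members against Baseline was 4.75 in NSC and 3.97 in NR (4.17 without NR 1), where that of all genes was 0.20 and 0.19. Against Sox1posGP the picture was similar. Relative to NSC, 8 members were lower in Sox1posGP and Map2 was higher, where 41.8% of all genes were called lower and 31.4% higher. Relative to NR, 8 were lower and 2, Map2 and Rbfox3, were higher, where 44.4% were called lower and 32.0% higher. The call of Rbfox3 (log2 fold change 0.64, edgeR adjusted p = 0.083), whose libraries overlapped, was lost in 9 of 23 alternatives, among them without NR 1 (0.47, edgeR adjusted p = 0.19), where the other 9 calls stood. The comparisons share libraries, so they are not separate evidence. As whole populations were sequenced, more immature neurons among the cells and more RNA of these genes per cell cannot be told apart.

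Coordinates of the genes are those of GENCODE vM21 on GRCm38. Tubb3 (ENSMUSG00000062380, chr8:123411424-123422015, 4 merged exon blocks) had the highest level per kilobase of exon among the 10 in the neuroepithelial groups. It lay at 6.09, 4.60 and 5.43 CPM in Baseline and at 7.82, 6.91 and 7.01 CPM in Sox1posGP. It lay at 262, 235 and 263 CPM in NSC and at 101, 143 and 167 CPM in NR. The order NSC above NR above both progenitor groups held without overlap of any library. Tubb3 was 46.0-fold higher in NSC than in Baseline (log2 fold change 5.52 ± 0.19 SE, edgeR adjusted p = 2.4e-11) and 24.9-fold higher in NR (4.64 ± 0.19, edgeR adjusted p = 9.3e-11). The progenitor groups were neighbors that did not differ beyond the test, with a log2 fold change of 0.38 in Sox1posGP and a 95% interval from -0.13 to 0.89. This difference passed in 1 of 23 alternatives.

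Dcx (ENSMUSG00000031285, chrX:143855842-143933311) was the least abundant member per kilobase in Baseline, where it was read 3 to 9 times per library. Its level was 0.537, 0.977 and 0.626 CPM in Baseline and 4.05, 5.81 and 3.84 CPM in Sox1posGP. In NSC it lay at 57.5, 22.8 and 50.7 CPM and in NR at 10.7, 15.0 and 25.3 CPM. The 4 groups thus followed each other from Baseline through Sox1posGP and NR to NSC, and the last pair overlapped because NSC 2 lay below NR 3. Dcx was 64.5-fold higher in NSC than in Baseline (log2 fold change 6.01 ± 0.51 SE, edgeR adjusted p = 1.3e-07) and 25.3-fold higher in NR (4.66 ± 0.52, edgeR adjusted p = 1.9e-06). Sox1posGP remained 9.42-fold below NSC and 3.70-fold below NR (log2 fold change -1.89, and -2.10 without NR 1).

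Stmn2 (ENSMUSG00000027500, chr3:8509360-8561606) had the largest difference from Baseline of the 10 genes in NR and, after Nefl, the next largest in NSC. In Baseline it was read 5 to 7 times per library, at 0.418, 0.837 and 1.04 CPM, and in Sox1posGP 2 to 3 times, at 0.579, 0.471 and 0.500 CPM. It lay at 113, 106 and 133 CPM in NSC and at 135, 112 and 145 CPM in NR. With so few progenitor reads, the contrast is given from the summed counts: Stmn2 was 236 times higher per total count in NSC than in Sox1posGP, with an exact 95% counting interval from 120 to 546. The same ratio for NR was 259, with an interval from 132 to 601, and both intervals cover counting error only. Against Baseline the fitted differences were 182-fold in NSC (log2 7.51 ± 0.22 SE, edgeR adjusted p = 6.2e-12) and 203-fold in NR (7.67 ± 0.22, edgeR adjusted p = 5.9e-12).

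Map2 (ENSMUSG00000015222, chr1:66175273-66442583, 24 merged exon blocks) ran the other way from its microtubule partners. It lay at 454, 459 and 480 CPM in Baseline and at 407, 408 and 391 CPM in Sox1posGP. It fell to 110, 51.6 and 108 CPM in NSC and to 26.0, 33.6 and 53.9 CPM in NR. No progenitor library overlapped a neuroepithelial one. Map2 was 5.16-fold lower in NSC than in Baseline (log2 fold change -2.37 ± 0.27 SE, edgeR adjusted p = 2.4e-06) and 12.2-fold lower in NR (-3.60 ± 0.28, edgeR adjusted p = 5.7e-08). Sox1posGP lay below Baseline in each library, yet the log2 fold change of -0.21 did not pass the test, with a 95% interval from -0.76 to 0.34. It passed when only these groups were fitted (edgeR adjusted p = 0.024), in 1 of 23 alternatives. An antisense gene, Gm10558, shares 124 exon bases with Map2, which is 0.75% of its exon length.

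The neurofilament genes Nefl (ENSMUSG00000022055, chr14:68083863-68089095) and Nefm (ENSMUSG00000022054, chr14:68082590-68124846) were close to absent from the progenitors. Nefl lay at 0.418, 0.837 and 0.417 CPM in Baseline and at 0.869, 1.26 and 1.33 CPM in Sox1posGP. It lay at 134, 145 and 168 CPM in NSC and at 69.4, 115 and 115 CPM in NR. Each NR library was thus below each NSC library, and NR 1 was the lowest. Nefl was 280-fold higher in NSC than in Baseline (log2 8.13 ± 0.29 SE, edgeR adjusted p = 3.9e-11) and 188-fold higher in NR (7.55 ± 0.30, edgeR adjusted p = 7.6e-11).

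Nefm followed the same course. It lay at 1.25, 1.26 and 0.835 CPM in Baseline, at 2.32, 1.88 and 3.00 CPM in Sox1posGP, at 199, 196 and 236 CPM in NSC and at 61.2, 135 and 131 CPM in NR. As for Nefl, the 4 groups did not overlap. It was 178-fold higher in NSC than in Baseline (log2 7.47 ± 0.35 SE, edgeR adjusted p = 4.3e-10) and 92.5-fold higher in NR (6.53 ± 0.35, edgeR adjusted p = 1.4e-09). Nefl and Nefm are annotated on opposite strands with 1108 shared exon bases, which is 32.8% of the exon length of Nefl and 19.2% of that of Nefm. Whether reads were counted by strand is not given in the sources used here, so reads from the shared stretch cannot be told apart. Per kilobase, the log2 ratio of Nefl over Nefm was 0.28 ± 0.07 (SD, n = 3) in NSC and 0.69 ± 0.23 in NR, where it was 0.56 without NR 1.

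Ina (ENSMUSG00000034336, chr19:47014698-47025327), which encodes internexin alpha, differed from its neurofilament partners by a clear level in the progenitors. It lay at 15.2, 13.8 and 13.6 CPM in Baseline and at 13.6, 13.7 and 13.2 CPM in Sox1posGP. It lay at 104, 66.1 and 126 CPM in NSC and at 99.1, 80.7 and 108 CPM in NR. The difference from Baseline was 6.87-fold in NSC (log2 2.78 ± 0.20 SE, edgeR adjusted p = 3.0e-08) and 6.70-fold in NR (2.74 ± 0.20, edgeR adjusted p = 3.3e-08). Ina shares 456 exon bases, 14.1% of its exon length, with Nt5c2 on the opposite strand, and Nt5c2 lay at 24.2 to 31.4 CPM in Baseline and at 75.8 to 81.6 CPM in NSC. The part of Nt5c2 reads in the Ina values was not tested.

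The neuronal Hu genes Elavl3 (ENSMUSG00000003410, chr9:22015005-22052023) and Elavl4 (ENSMUSG00000028546, chr4:110203722-110351909) had nearly parallel profiles at different levels. Elavl4 lay at 12.8, 9.77 and 11.7 CPM in Baseline and at 14.2, 11.0 and 12.0 CPM in Sox1posGP. It lay at 146, 148 and 151 CPM in NSC and at 48.3, 89.5 and 84.9 CPM in NR. The progenitor groups overlapped each other, and both lay apart from NR and NSC. Elavl4 was 12.8-fold higher in NSC than in Baseline (log2 3.68 ± 0.21 SE, edgeR adjusted p = 2.4e-09) and 6.43-fold higher in NR (2.69 ± 0.20, edgeR adjusted p = 4.2e-08).

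Elavl3 lay at 1.25, 1.26 and 2.09 CPM in Baseline, at 2.32, 1.41 and 2.84 CPM in Sox1posGP, at 22.7, 19.3 and 25.9 CPM in NSC and at 7.20, 14.1 and 20.9 CPM in NR. NR and NSC overlapped here, since NR 3 lay above NSC 2. Elavl3 shares 256 exon bases, 3.72% of its exon length, with Gm49318 on the same strand. Elavl3 was 15.8-fold higher in NSC than in Baseline (log2 3.98 ± 0.39 SE, edgeR adjusted p = 6.3e-07) and 9.89-fold higher in NR (3.31 ± 0.39, edgeR adjusted p = 3.8e-06). Elavl1, the Hu gene expressed in most cell types, moved far less, with a log2 fold change of 0.60 in NSC and 0.34 in NR against Baseline (0.37 without NR 1). Per kilobase, the summed level of Elavl3 and Elavl4 over that of Elavl1 was -3.66 ± 0.26 on the log2 scale in Baseline (SD, n = 3), -3.70 ± 0.23 in Sox1posGP, -0.53 ± 0.16 in NSC and -1.29 ± 0.41 in NR, where it was -1.05 without NR 1.

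Rbfox3 (ENSMUSG00000025576, chr11:118489762-118911597) was low in the 12 libraries, with 12 to 105 counts in each progenitor library and 49 to 380 in each neuroepithelial one. It lay at 6.27, 4.74 and 7.51 CPM in Baseline, at 3.47, 7.85 and 8.84 CPM in Sox1posGP, at 8.50, 6.63 and 9.27 CPM in NSC and at 3.02, 4.52 and 5.70 CPM in NR. Baseline overlapped each of the other groups. The log2 fold change against Baseline was 0.41 in NSC, with a 95% interval from -0.23 to 1.05, and -0.45 in NR, with an interval from -1.11 to 0.20. These intervals leave out a 4-fold difference in either direction. Without NR 3, Rbfox3 was called lower in NR (log2 fold change -0.71, edgeR adjusted p = 0.073).

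**Figure D2:**
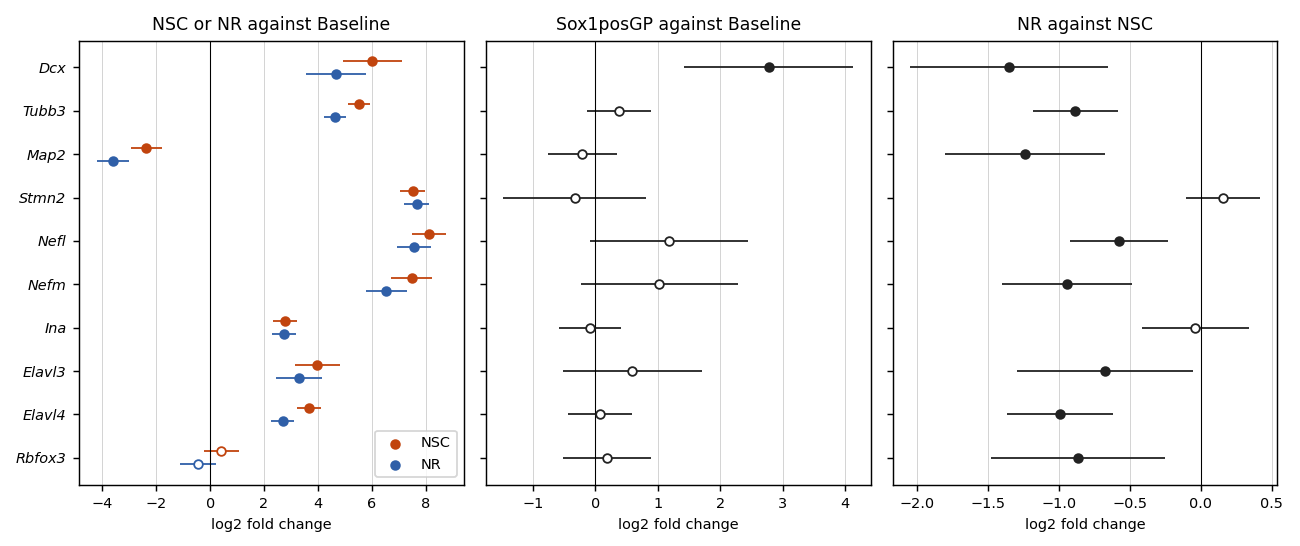
Log2 fold changes of the 10 genes with 95% intervals from the edgeR fit, with 3 libraries per group. Filled points passed an adjusted p below 0.1 and open points did not. Against Baseline, NSC and NR each have 8 filled points right of 0 and Map2 left of it, Dcx is the 1 filled point for Sox1posGP, and the 8 filled points of NR against NSC lie left of 0.

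The comparison of Sox1posGP with Baseline asks whether neuronal genes differ in glial progenitors that were both targeted at Sox1 and sorted. Dcx was 6.85-fold higher in Sox1posGP (log2 2.78 ± 0.63 SE, edgeR adjusted p = 0.0031), from 0.713 ± 0.232 to 4.57 ± 1.08 CPM (SD, n = 3), and each Sox1posGP library lay above each Baseline library. Of the other 9 members, none passed in this fit over the 12 libraries. Members called higher numbered 3 with only the groups compared and 3 with DESeq2, where Nefl and Nefm were added. The study named a Wald test, the kind run in DESeq2, and counted genes with a fold change over 4. With only the groups compared, Map2 was called lower (edgeR adjusted p = 0.024). From the summed counts of 74 against 19, the Dcx ratio was 7.67 per total count with an exact 95% counting interval from 4.58 to 13.5. The median log2 fold change of the 10 was 0.28, against 0 over all genes.

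Nefl and Nefm came next in size and lay above Baseline in each Sox1posGP library. Their log2 fold changes of 1.18 (edgeR adjusted p = 0.14, 95% interval from -0.09 to 2.45) and 1.03 (edgeR adjusted p = 0.20, from -0.23 to 2.28) did not pass. Both passed when NR 1, a library outside this comparison that enters the shared estimate of spread, was left out (edgeR adjusted p = 0.046 and 0.012). Each passed in 4 alternatives, of 22 for Nefl and 23 for Nefm. These 2 differences rest on 15 to 38 reads per gene and group. Elavl3 and Elavl4 (log2 fold changes 0.59 and 0.08), Rbfox3 (0.18), Ina (-0.09) and Stmn2 (-0.33) overlapped between the groups. In total 5 members, Dcx, Tubb3, Nefl, Nefm and Map2, did not overlap, where 52.7% of all genes did not.

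Within neuroepithelium, the NR libraries held less of most members than the NSC libraries. The median log2 fold change of the members was -0.87 (-0.67 without NR 1), and that of all genes was 0.01. The largest falls were those of Dcx (-1.35 ± 0.32 SE, edgeR adjusted p = 0.0036) and Map2 (-1.24 ± 0.26, edgeR adjusted p = 0.0015), although the groups overlapped in both because NSC 2 was low. Matched by replicate number, which no label gives as a pairing, NR lay below NSC in 3 of 3 for Dcx, Map2 and Elavl3. Elavl4 (-0.99 ± 0.17, edgeR adjusted p = 4.0e-04), Nefm (-0.94 ± 0.21, edgeR adjusted p = 0.0024), Tubb3 (-0.88 ± 0.14, edgeR adjusted p = 1.8e-04), Rbfox3 (-0.86 ± 0.28, edgeR adjusted p = 0.022) and Nefl (-0.58 ± 0.16, edgeR adjusted p = 0.0091) fell without overlap, as 26.6% of all genes did. Rbfox3 lost its call when the libraries were thinned to the smallest total (-0.56, edgeR adjusted p = 0.15). Elavl3 had the highest p of the 8, at -0.67 ± 0.29 (edgeR adjusted p = 0.068).

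Stmn2 and Ina were the exceptions, with log2 fold changes of 0.16 (95% interval from -0.10 to 0.42) and -0.04 (from -0.41 to 0.34). Single libraries decided whether they passed: Stmn2 was called higher without NR 2 (0.25, edgeR adjusted p = 0.088), and Ina was called lower without NSC 2 (-0.27, edgeR adjusted p = 0.068). NR 1 lay below its group mean for 8 of the 10 members, with a median deviation of -0.49 on the log2 scale, while NR 3 lay above it for 10 of 10. In NSC, replicate 2 was below the group mean and replicate 3 above it for 10 of 10. Without NR 1, the falls were -1.12 for Dcx, -1.04 for Map2, -0.77 for Elavl4, -0.71 for Tubb3, -0.67 for Rbfox3, -0.66 for Nefm and -0.38 for Nefl, and each stayed called. Elavl3 lost its call without NR 1 (-0.37, edgeR adjusted p = 0.19), without NSC 1 (edgeR adjusted p = 0.11) and without NSC 3 (edgeR adjusted p = 0.18). The fold changes of NR against Baseline without NR 1 stayed on the same side for each member, from 2.68 for Ina to 7.72 for Nefl among those that rose and -3.44 for Map2.

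Other cell types differed between these libraries as well. The summed level of 5 pluripotency markers (Pou5f1, Nanog, Zfp42, Esrrb and Dppa5a) ranged from 1326 to 2505 CPM in NR, from 43.2 to 130 CPM in NSC, from 6.44 to 7.12 CPM in Baseline and from 7.07 to 9.01 CPM in Sox1posGP, and each of the 5 was called higher in NR than in NSC. The 6 markers of early neural stem cells summed to 353 to 801 CPM in NR and to 1395 to 1486 CPM in NSC, and each of the 6 was called lower. These 11 calls stood without NR 1, and with the 12 libraries 30.0% of all genes were called higher and 26.6% lower. The part of this shift in the lower level of the members in NR was not tested. In the progenitors, 6 glial progenitor markers summed to 4441 to 4828 CPM in Baseline and to 2281 to 2378 CPM in Sox1posGP. There 4 of the 6 were called lower and 1 higher, against 22.7% and 21.6% of all genes. The 6 markers of early neural stem cells summed to 475 to 552 CPM in Baseline and to 516 to 523 CPM in Sox1posGP. Of these, 2 were called lower and 3 higher, and Nes is in both lists.

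Markers of more mature and of peripheral neurons were set beside the members. The 6 markers of mature neurons and synapses summed to 43.9 to 55.8 CPM in NSC, 41.9 to 48.4 CPM in NR, 32.8 to 33.4 CPM in Baseline and 28.1 to 31.4 CPM in Sox1posGP, with the glutamate transporter gene Slc17a6 at 0 counts in the progenitors. Of the 6, 4 were called higher and 2 lower in NSC than in Baseline, against 44.4% and 33.7% of all genes. In Sox1posGP, Syn1 (1.69-fold) and Gad1 (2.11-fold) were called higher than in Baseline and Syt1 was called lower, from 21.4 to 9.11 CPM, with a median log2 fold change of 0.38 over the 6. Of all genes, 21.6% were called higher and 22.7% lower there. The 5 markers of peripheral and cranial neurons summed to 129 to 209 CPM in NSC, 51.2 to 115 CPM in NR, 7.39 to 10.8 CPM in Baseline and 7.24 to 7.51 CPM in Sox1posGP. The sums were higher in NSC than in NR and overlapped between the progenitor groups. Their part in the members' values was not tested. Mesenchymal markers, which are no neural genes, summed to 575 to 1875 CPM in NSC and to 633 to 4699 CPM in NR, and to at most 32.8 CPM in the progenitors. Of 3 markers of microglia and blood, none passed the filter on low counts.

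On a per-kilobase scale, the make-up of the set turned over between cell types. Map2 gave 71.6% ± 1.8 (SD, n = 3) of the summed RPKM (CPM per kilobase of exon) of the 10 genes in Baseline and 65.2% ± 0.96 in Sox1posGP, but 1.74% ± 0.54 in NSC and 1.16% ± 0.23 in NR. Tubb3 gave 7.28% ± 0.88 in Baseline, 10.3% ± 0.65 in Sox1posGP, 44.1% ± 2.1 in NSC and 37.4% ± 1.8 in NR. The Map2 and Tubb3 shares did not overlap between progenitors and neuroepithelium. Without Map2 the other 9 genes summed to 10.2 to 12.1 RPKM in Baseline and 12.8 to 13.3 RPKM in Sox1posGP, and to 275 to 331 RPKM in NSC and 151 to 227 RPKM in NR.

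**Figure D3:**
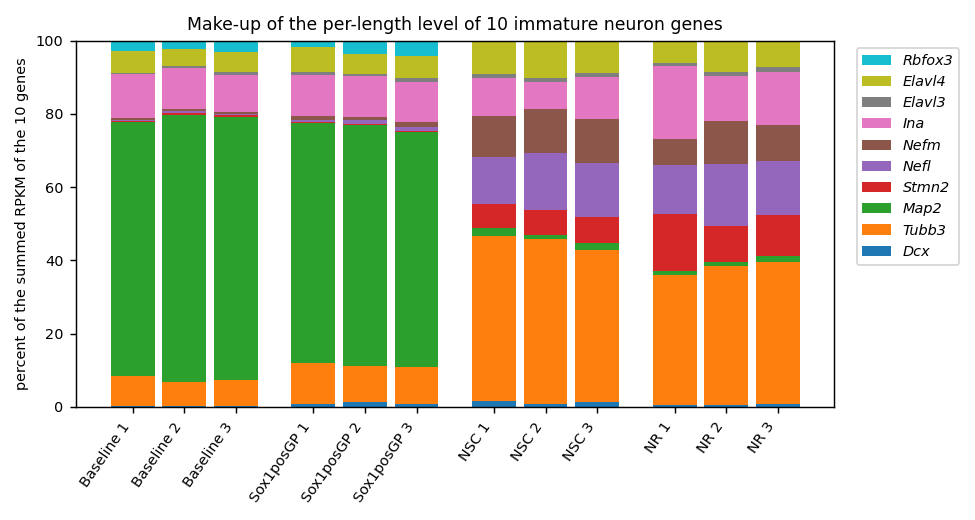
Share of each of the 10 genes in their summed RPKM, in percent, for the 12 libraries. Map2 fills 64.2% to 73.2% of each progenitor bar and 1.01% to 2.16% of each neuroepithelial bar, where Tubb3 is the largest part at 35.4% to 45.3%.

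The order of the members per kilobase shows the same change. In Baseline it ran from Map2 (28.2 RPKM) through Ina (4.38), Tubb3 (2.88), Elavl4 (2.12) and Rbfox3 (1.06) to Elavl3, Nefm, Nefl, Stmn2 and Dcx, which lay between 0.222 and 0.056 RPKM. In Sox1posGP the first 5 kept this order, and Dcx moved from the last place to the seventh with 0.361 RPKM. In NSC, Tubb3 (136 RPKM) was followed by Nefl (44.1), Nefm (36.4), Ina (30.4), Elavl4 (27.5) and Stmn2 (21.0), and Map2 (5.46) stood ahead of Dcx, Elavl3 and Rbfox3. In NR, Tubb3 (73.4 RPKM) was again first, and Ina (29.6), Nefl (29.5), Stmn2 (23.4) and Nefm (18.9) followed. Neighbors among these 4 overlapped between libraries, but Ina lay above Nefm in each library. Tubb3 stood at the 98th percentile of all genes tested in NSC and at the 95th in NR, and Map2 at the 86th in Baseline.

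Profiles were compared by the root mean square (RMS) difference of log2 CPM over the 12 libraries, each gene centered on its mean. Elavl3 and Elavl4 were nearest each other, at an RMS of 0.34, followed by Nefl and Nefm at 0.45 and by Ina and Elavl4 at 0.52. Map2 was the farthest member from 8 of the other 9, and the nearest to it was Rbfox3 at 1.50, for which Stmn2 was the farthest at 3.80. The 5 genes whose profiles were most like the mean of the members were Slain1 (RMS 0.15), Hspa12a (0.19), Tceal3 (0.21), Scrn1 (0.24) and Rims2 (0.25). Slain1, for instance, averaged 2.97 CPM in Baseline, 4.23 in Sox1posGP, 56.1 in NSC and 33.4 in NR, and Tceal3 was read in neither progenitor group. As the groups differ in many genes, such likeness describes the libraries and no more.

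Neurons also need other microtubule and growth cone genes, and 16 of these were set beside the members. In NSC, 10 were called higher and 4 lower than in Baseline, where 44.4% of all genes were higher and 33.7% lower. The median log2 fold change was 0.71 against 0.20 for all genes. Stmn4 (3.26), Crmp1 (3.15), a mediator of axon guidance signals, and Stmn3 (2.73) rose most, while Mapt (-2.18), which encodes the axonal protein tau, Dclk1 (-0.71) and Tubb2a (-0.61) fell most. Mapt thus changed in the same direction as Map2, from 37.9 ± 2.28 CPM in Baseline to 8.33 ± 3.42 CPM in NSC (SD, n = 3). In NR against NSC, 15 of the 16 were called lower and none higher, where 26.6% of all genes were lower and 30.0% higher. The falls were led by the kinesin gene Kif5c (-1.38), Map1b (-0.99) and Crmp1 (-0.90), and Mapt was the 1 gene that was not called. Without NR 1, 14 were lower and Gap43 lost its call (-0.30, edgeR adjusted p = 0.11), with Kif5c at -1.16, Map1b at -0.75 and Crmp1 at -0.78. In Sox1posGP, 5 were called higher and 5 lower than in Baseline, where 21.6% of all genes were higher and 22.7% lower. Among the 5 and 5 were Dclk1 (0.84), a relative of Dcx, Map1b (-1.19) and Mapt (-1.06). Stmn4, read 1 to 2 times in each Sox1posGP library, lay at 0.290, 0.314 and 0.167 CPM there and at 1.13, 1.81 and 1.67 CPM in Baseline. These 16 genes had been chosen with results of these data known.

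Among 6 further intermediate filament genes, the third neurofilament subunit Nefh departed from Nefl and Nefm. It lay at 6.26, 5.32 and 5.64 CPM in NSC and at 30.6, 15.5 and 22.8 CPM in NR. Nefh was therefore higher in NR (log2 fold change 1.99 ± 0.29 SE, edgeR adjusted p = 1.1e-04), where Nefl and Nefm were lower. Prph, the filament gene of peripheral neurons, was also higher in NR than in NSC (1.84 ± 0.24, edgeR adjusted p = 4.7e-05), and lower in Sox1posGP than in Baseline (-2.38 ± 0.37, edgeR adjusted p = 2.0e-04). Of the 6, 2 were called higher and 2 lower in NR than in NSC, where 30.0% of all genes were higher and 26.6% lower. Nes and Vim, the filaments of progenitors, were those that were lower. Without NR 1 these 4 calls stood, with Nefh at 1.73 and Prph at 1.64.

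Of 11 other neuronal RNA-binding and splicing genes, 6 were called higher and 2 lower in NSC than in Baseline, against 44.4% and 33.7% of all genes. In NR against NSC, 7 were lower and none higher, where 26.6% of all genes were lower and 30.0% higher. In Sox1posGP against Baseline, 2 were higher and 1 lower, where 21.6% of all genes were higher and 22.7% lower. Srrm4, a splicing factor of neural microexons, had the largest rise in NSC, from 0.332 ± 0.075 to 40.5 ± 7.60 CPM (log2 6.98 ± 0.47 SE, edgeR adjusted p = 1.3e-08). Elavl2, the third neuronal Hu gene, did not follow Elavl3 and Elavl4 from Baseline to NSC. It was at 38.8 to 40.3 CPM in Baseline and 37.6 to 45.4 CPM in NSC, and its log2 fold change of 0.09 did not pass. In NR, Elavl2 lay at 21.6 to 30.1 CPM. Without NR 1 it was called lower in NR than in Baseline (-0.61, edgeR adjusted p = 7.8e-04), where Elavl3 and Elavl4 were higher. It was then also called lower in NR than in NSC (-0.67, edgeR adjusted p = 9.0e-04), as was Elavl4. Rbfox2, at 58.8 to 64.7 CPM in Baseline, did not pass the test against Baseline in NSC or, with or without NR 1, in NR. Ptbp2, the neuronal counterpart of the splicing repressor Ptbp1, was higher in NSC than in Baseline (0.70 ± 0.15, edgeR adjusted p = 7.3e-04), but Ptbp1 was too (1.17 ± 0.08, edgeR adjusted p = 1.8e-08), and the log2 ratio of Ptbp2 over Ptbp1 per kilobase was -1.22 ± 0.24 in Baseline, -1.61 ± 0.09 in Sox1posGP, -1.68 ± 0.20 in NSC and -2.46 ± 0.44 in NR (SD, n = 3), where it was -2.20 without NR 1. Without NR 1, 7 of the 11 were again lower in NR than in NSC, but Rbfox2 was no longer called and Khdrbs2 was.

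Rest, the repressor that keeps neuronal genes silent in other cells, was measured beside them. It lay at 64.2, 62.6 and 58.6 CPM in Baseline, at 77.3, 81.2 and 88.4 CPM in Sox1posGP, at 102, 110 and 105 CPM in NSC and at 317, 245 and 293 CPM in NR. The 4 groups did not overlap. Rest was higher in NR than in NSC (log2 fold change 1.43 ± 0.09 SE, edgeR adjusted p = 2.9e-07, and 1.35 without NR 1), where 8 members were lower, and higher in NSC than in Baseline (0.77 ± 0.10, edgeR adjusted p = 6.8e-06), where 8 members were higher. Rest was 1 of 6 repressor genes set beside the members. In NR against NSC, Rest was the 1 called higher and 3 were lower, where 30.0% of all genes were higher and 26.6% lower. In NSC against Baseline, 4 of the 6 were higher and 0 lower, against 44.4% and 33.7% of all genes. The part of Rest in the members' levels was not tested.

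**Figure D4:**
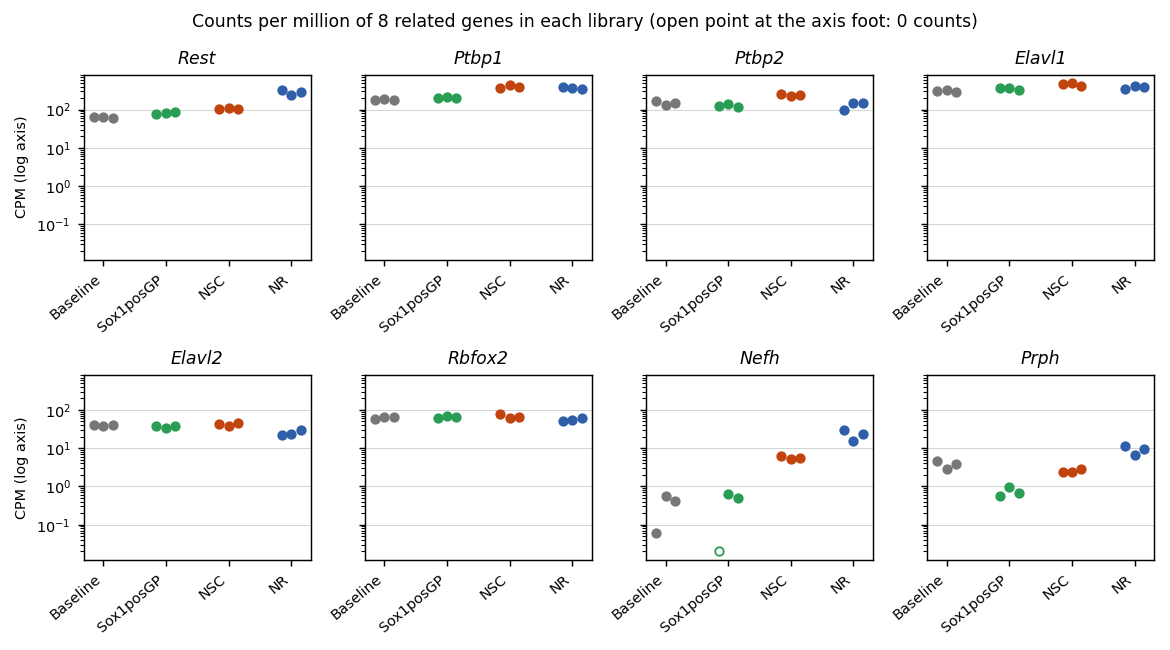
CPM (log axis) of 8 genes related to the members, with 1 point per library and 3 libraries per group; an open point at the foot of the axis marks 0 counts. Rest rises from 58.6 to 64.2 CPM in Baseline to 245 to 317 CPM in NR, Nefh and Prph are higher in NR than in NSC, and Elavl2 ranges from 21.6 to 45.4 CPM and Rbfox2 from 50.7 to 78.5 CPM.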

How the data were processed

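Total RNA of the 12 samples had been isolated with the PicoPure kit, turned into cDNA with SMART-Seq v4 and made into libraries with the MicroPlex kit. The authors deposited raw counts of reads per gene. The submitters' processing notes name STAR 2.6, RSEM 1.1.14 and mm10 without giving their roles; the annotation, read filter and strand setting are not given in the sources used here. The deposited counts were whole numbers and were used as they are. Of the 45706 genes, 45143 had a symbol and exon length in GENCODE vM21 (GRCm38, the build mm10), and the other 563 held 0.124% of counts.

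Genes were filtered by filterByExpr (edgeR 4.0.16, R 4.3.3), scaled by TMM, and fitted over the 12 libraries with group as the only term (glmQLFit, glmQLFTest, Benjamini-Hochberg over 17003 genes, threshold 0.1, the false discovery rate named in the study). CPM are TMM-scaled, RPKM divide CPM by the merged exon length, and log2 fold changes use a prior count of 0.125. The fit was run on simulated counts with each gene at its mean level over the 12 libraries. It recovered 78.5% of log2 changes of 2 for Sox1posGP against Baseline, the lowest of the comparisons, and at most 92% for NR against Baseline. The lower progenitor levels of Stmn2, Nefl and Dcx were thus not simulated. The members and lists were chosen with earlier results of these data known. The 10 members and Sox1 are named with values, and of each further list at most 6 genes in a comparison. These are the 3 highest and 3 lowest of those called or the direct counterparts Elavl1, Elavl2, Rbfox1, Rbfox2, Ptbp1, Ptbp2, Nefh, Prph and Rest. Syn1, Gad1, Syt1, Slc17a6, Gap43 and Khdrbs2 were named after their values were seen. Replicates were grown on different days. Replicates of the same number in NSC and NR deviated together (correlations of deviations from the group mean from 0.23 to 0.49 over genes, 3 of 3 pairs above 0.1). Some of other numbers did so too, at 0.30 for NR 3 with NSC 1 and 0.19 for NR 1 with NSC 3. The data thus set apart only replicate 2 as a pair, and no label pairs the libraries. A replicate block changed no member's call between NR and NSC. No 2 libraries were alike within sampling noise. Alternatives were DESeq2 1.42.0, other scalings, filters, thresholds and sample sets, thinning to 3407066 counts, and leaving out each library.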

Additional observations from a re-analysis of the deposited data

Results flagged for a closer look

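In 7 members, the difference between the sorted and the unsorted group was not the same in the progenitors as in neuroepithelium, by the test of the difference itself within the edgeR fit. Sox1posGP minus Baseline was set against NR minus NSC, and a positive value means a higher contrast in the progenitors. The sorted progenitors had also been targeted at Sox1 and the sorted neuroepithelial cells had not, so the 2 contrasts are alike by the sorting label alone, which for Baseline differs from the study's text.

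The largest value was that of Dcx, where the contrasts differed by 4.12 ± 0.70 SE on the log2 scale (edgeR adjusted p = 4.1e-04): Dcx was higher in each Sox1posGP library than in any Baseline library and was lower in NR than in NSC. Nefm (1.97, edgeR adjusted p = 0.022), Nefl (1.75, edgeR adjusted p = 0.035), Tubb3 (1.27, edgeR adjusted p = 0.0025), Elavl4 (1.07, edgeR adjusted p = 0.010), Rbfox3 (1.05, edgeR adjusted p = 0.068) and Map2 (1.03, edgeR adjusted p = 0.036) followed. In each of these 6, NR was called lower than NSC while Sox1posGP against Baseline did not pass. Among all genes tested, 24.0% had a higher and 24.4% a lower contrast in the progenitors by the same rule.

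Without NR 1, the library with the lowest Sox1 of its group, the values were 3.88 for Dcx, 1.67 for Nefm, 1.54 for Nefl, 1.07 for Tubb3, 0.83 for Elavl4 and 0.82 for Map2, and each passed. Rbfox3 no longer passed (0.85, edgeR adjusted p = 0.12), nor did it without any 1 of NSC 1, NSC 3, Baseline 1, Baseline 2, Sox1posGP 2 and Sox1posGP 3. Thinned to the smallest library total, Rbfox3 lay at 0.53 (edgeR adjusted p = 0.37) and Nefl at 1.67 (edgeR adjusted p = 0.14), and neither passed. Elavl3, at 1.26 with the 12 libraries (edgeR adjusted p = 0.11), passed without NR 1 (0.95, edgeR adjusted p = 0.095), NSC 2, NR 3, Baseline 3 or Sox1posGP 2. Nefl lost its call without Baseline 1 (1.45, edgeR adjusted p = 0.15) and without Sox1posGP 3 (1.65, edgeR adjusted p = 0.10). Stmn2 (-0.49) and Ina (-0.05) did not pass.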

How the results depend on the processing

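For NSC against Baseline and Sox1posGP against NSC, the counts of members called in each direction were the same under the 23 alternatives run. For Sox1posGP against Baseline, members called higher numbered 3 with no filter on low counts, 3 with only the groups compared, 3 with DESeq2, 2 with the replicate block (Nefl was added) and 1 to 3 when 1 library was left out, and 1 was called lower with only the groups compared (Map2). For Sox1posGP against NR, members called higher numbered 1 at an adjusted p under 0.05, 1 at a fold change over 4, 1 with upper-quartile scaling, 1 with only the groups compared, 1 when thinned to the smallest library and 1 to 2 when 1 library was left out. The member lost was Rbfox3 (0.64, edgeR adjusted p = 0.083), which also fell out without NR 1, NR 2, Sox1posGP 2 or Sox1posGP 3. For NR against Baseline, members called lower numbered 2 with the replicate block (Rbfox3 was added) and 1 to 2 when 1 library was left out. For NR against NSC, members called lower numbered 0 at a fold change over 4 and members called higher 0 to 1 when 1 library was left out. The difference of the contrasts kept 1 of 7 members at a fold change over 4. Replicates of the same number correlated above 0.1 for NR with NSC alone. The block moved the call of Elavl3 in the difference of the contrasts (1.21, edgeR adjusted p = 0.060), and it changed no other member call beyond those named. The causes were not tested. Stmn2 and Nefl did not pass the filter when only Sox1posGP and Baseline were fitted.

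Signs that turned belonged to small values that had not passed. Ina in NR against NSC was 0.015 with upper-quartile scaling and -0.27 to 0.15 when 1 library was left out, and its difference of the contrasts was 0.024 with no filter and -0.22 to 0.20. Ina in Sox1posGP against Baseline ran from -0.13 to 0.0041, and Elavl4 from -0.043 to 0.23. Rbfox3 in Sox1posGP against Baseline was -0.036 when thinned and -0.048 to 0.47 when 1 library was left out, and against NSC -0.47 to 0.081. The scalings moved the median of all genes by less than 0.1 on the log2 scale. Depth limits Stmn2, Nefl and Dcx in the progenitors, where single libraries held as few as 2 reads.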
